A study of Bos taurus with 48 samples.

Results

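Of 12382 genes with a mean CPM of at least 1 in calf blood, 3 had values in Jersey (J) calves that did not overlap with those in Holstein-Friesian (H-F) calves in any library. One of them, ENSBTAG00000010456, was higher in J calves, and PRSS2 and BOLA were higher in H-F calves. CPM gives the reads of a gene for every 1000000 reads counted on annotated genes of that library. A gene was taken when the lowest of the 24 libraries of 1 breed lay above the highest of the 24 libraries of the other breed. The annotation of the deposited table holds 24616 genes, of which 12382 reached the mean of 1 CPM. The share that separated was 0.00808% in the direction of J and 0.0162% in the direction of H-F. The 3 genes were thus chosen by their measured CPM in the 2 breeds, so the breed difference of each is a description and carries no test.

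Whole blood was drawn from 8 H-F and 8 J bull calves, artificially reared and gradually weaned from milk replacer, at 3 times around weaning. At d -14 the milk had not yet been reduced, at d 1 it had just been withdrawn, and at d 8 solid feed had been the diet for about a week. All calves had the same milk replacer, housing and vaccines, and none was left unweaned. All H-F calves shared a farm of origin, J calves came from a pair of farms, the J calves were older on arrival, and breed cannot be told apart from farm and age. Concentrate was offered freely to J and by allowance to H-F calves, although per the study's methods H-F calves never ate all of theirs, so that the offer was in effect alike. In bulk blood, fewer cells of a type and less RNA per cell cannot be told apart either.

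Libraries held 26160617 to 39017662 gene reads, with a range of 26160617 to 39017662 in J and 28028834 to 37697974 in H-F. Spike-in RNA took 0.174% to 0.322% of the reads. The median gene was higher in J by 0.05 on the log2 scale when scaled by column sums, and the breeds differed by under 0.01 with TMM factors. The study removed a J calf without naming it in its text. All 16 calves were used here. J calf 85 had the lowest mean of BOLA and the highest mean of ENSBTAG00000010456 among J calves. Values without it are given for both of these genes and for counts of genes. The cell types of blood could not be checked against marker genes, because identifiers were paired with symbols only for genes that the study listed as differing between breeds.

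BOLA (ENSBTAG00000002069) is named as the heavy chain of an MHC class I molecule. Class I molecules sit on the surface of nearly all nucleated cells and present peptides from inside the cell to cytotoxic T lymphocytes. Their heavy chains are encoded by a family of closely related and highly polymorphic genes, and in cattle the number of expressed genes differs between haplotypes. PRSS2 (ENSBTAG00000021565) is a trypsinogen, the precursor of a pancreatic protease that digests protein in the gut. In mammals trypsinogen genes lie within the locus of the T cell receptor beta chain. ENSBTAG00000010456 has no symbol in the sources used here, and nothing is said of its function.

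Gene order in the RefSeq annotation of the ARS-UCD2.0 assembly placed PRSS2 on chromosome 4 and BOLA on chromosome 23. Within 8 places on either side of PRSS2 there were 16 genes, of which 7 were annotated as V segments and 1 as a C region of a receptor. EPHB6, TRPV6 and TRPV5, a kinase-family receptor and a pair of calcium channels, followed on one side. JSP.1, another class I gene, lay 5 places from BOLA, and BOLA-NC1, named as non-classical class I, lay 8 places away on the same side. TRIM15, TRIM10, TRIM40 and TRIM31 lay on the other side of BOLA. The counts were made on UMD3.1, another assembly, so positions are not given.

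ENSBTAG00000010456 was 1.33 times higher in J than in H-F calves, a small difference that held in every library. In J calves it had 35.1 to 53.0 CPM (median 40.0) and in H-F calves 26.4 to 33.7 CPM (median 30.3). At d -14 the J libraries lay at 35.1 to 44.2 CPM (median 41.3) and the H-F libraries at 26.4 to 32.7 CPM (median 29.5). The lowest J library was above the highest H-F library by a small step. At d 1 the ranges were 36.1 to 53.0 CPM (median 39.1) in J and 28.6 to 32.8 CPM (median 30.7) in H-F, and at d 8 they were 35.3 to 49.2 CPM (median 40.5) and 28.0 to 33.7 CPM (median 31.1). Averaged over the 3 days of a calf, the level was 40.6 ± 3.91 CPM (SD, n = 8 J calves), and for H-F it was 30.5 ± 1.53 CPM (SD, n = 8). Ratios of the J to the H-F mean were 1.34, 1.35 and 1.31 in order of day. By calf mean J calf 85 was highest, at 47.8 CPM, and J calves 6, 60 and 7 were lowest, at 36.4, 36.9 and 37.0 CPM. J calf 85 had 41.3, 53.0 and 49.2 CPM on the 3 days, and was highest at d 1 and d 8. At d -14 J calf 57 was highest, at 44.2 CPM. Without J calf 85 the J mean was 39.5 ± 2.79 CPM (SD, n = 7) and the ratio 1.30.

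PRSS2 was 36.0 times higher on average in H-F than in J calves, but its level in H-F calves depended strongly on the calf. The H-F libraries ranged from 2.60 to 81.8 CPM (median 43.7) and the J libraries from 0.423 to 1.72 CPM (median 1.03). H-F calf 49 had 76.0, 80.3 and 81.8 CPM at d -14, d 1 and d 8, and H-F calves 20, 48 and 56 had 56.8 to 66.5 CPM. H-F calf 25 was intermediate, at 24.6 to 30.7 CPM. H-F calves 27, 32 and 33 were low, with calf means of 4.69, 2.90 and 3.19 CPM. The lowest 3 H-F calves thus lay nearer to the J calves than to the other 5 calves of their own breed. The H-F calf means averaged 37.4 ± 31.6 CPM (SD, n = 8), and the J calf means 1.04 ± 0.301 CPM (SD, n = 8). The highest H-F calf mean was 27.4 times the lowest, whereas the highest of a calf's 3 days was 1.00 to 1.40 times its lowest day (median 1.14).

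In J calves PRSS2 rested on few reads, 14 to 62 per library, against 85 to 3006 in H-F calves. J calf means ran from 0.505 CPM in calf 77 to 1.40 CPM in calf 57, and the highest day of a J calf was 1.29 to 1.65 times its lowest. Ratios of the H-F to the J mean were 33.7, 39.7 and 35.1 in order of day. At d -14, d 1 and d 8 the H-F libraries reached down to 2.60, 2.77 and 3.11 CPM and the J libraries up to 1.49, 1.72 and 1.65 CPM. Reads that PRSS2 shares with other trypsinogen genes do not map to a unique place and were left out of the counts, so its values are uncertain in that respect.

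BOLA was 2.20 times higher in H-F than in J calves. The H-F libraries lay at 1894 to 2705 CPM (median 2351) and the J libraries at 587 to 1426 CPM (median 1021). The average of calf means was 2327 ± 169 CPM (SD, n = 8) for H-F, whereas J calves averaged 1056 ± 288 CPM (SD, n = 8). H-F calves were close to each other, with calf means from 1991 CPM in calf 25 to 2541 CPM in calf 32. J calves were spread more widely, from 609 CPM in calf 85 to 1401 CPM in calf 6 and 1416 CPM in calf 77. Ratios of the H-F to the J mean were 2.23, 2.16 and 2.23 in order of day, and without J calf 85 it was 2.08 over all days.

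At d -14 BOLA had 1924 to 2705 CPM in H-F (median 2360) and 612 to 1426 CPM in J calves (median 1070). At d 1 the ranges were 1894 to 2432 CPM (median 2325) and 587 to 1417 CPM (median 1065), and at d 8 they were 2157 to 2499 CPM (median 2351) and 628 to 1418 CPM (median 1021). H-F calf 25 was the lowest of its breed on each day, and J calf 85 the lowest of its breed on each day. The highest day of a calf was 1.03 to 1.14 times its lowest in H-F and 1.02 to 1.22 times in J calves.

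**Figure D1:**
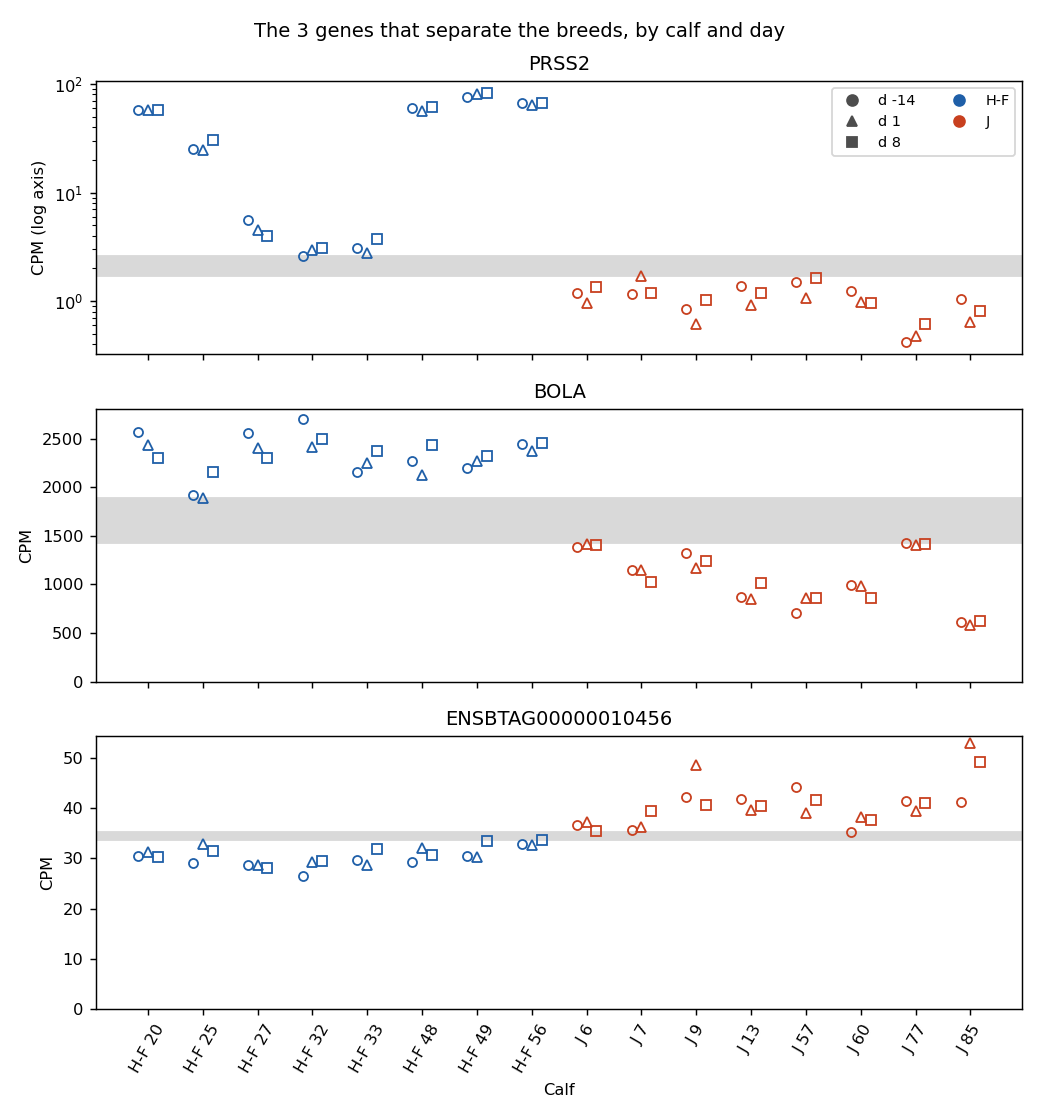
CPM of the 3 genes in each of the 48 libraries, by calf (horizontal axis) and day (symbols), with H-F calves in blue and J calves in red; the vertical axis is logarithmic for PRSS2 and linear from 0 for the others. The grey band is the gap between the lowest library of the higher breed and the highest library of the other, and for PRSS2 H-F calves 27, 32 and 33 lie just above it while calf 49 reaches 81.8 CPM.

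The gap between the breeds differed in width. For PRSS2 the lowest H-F library (calf 32 at d -14, 85 reads) was 1.51 times the highest J library (calf 7 at d 1, 62 reads). Their values of 2.60 and 1.72 CPM had 95% Wilson intervals of 2.10 to 3.22 and 1.34 to 2.20 CPM, which overlap. For BOLA the ratio was 1.33, between 1894 CPM in H-F calf 25 at d 1 and 1426 CPM in J calf 77 at d -14, with intervals of 1880 to 1908 and 1413 to 1439 CPM that did not overlap. For ENSBTAG00000010456 it was 1.04, between 35.1 CPM in J calf 60 at d -14 (1130 reads) and 33.7 CPM in H-F calf 56 at d 8 (1185 reads). The intervals of these libraries, 33.1 to 37.2 and 31.8 to 35.6 CPM, overlap. Intervals cover counting error only, since reads without molecular identifiers need not be independent molecules. The ratio itself had an exact 95% counting interval of 1.08 to 2.13 for PRSS2, 1.31 to 1.34 for BOLA and 0.96 to 1.13 for ENSBTAG00000010456. This interval lay above 1 for PRSS2 and BOLA and included 1 for ENSBTAG00000010456. It takes no account of the choice of these libraries as extremes of their breeds. Nor does it allow for the genes having been chosen for a ratio above 1. It therefore describes counting error in the libraries shown and does not test the separation.

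Just outside the rule were genes with a ratio a little under 1. In the direction of J these were ENSBTAG00000017283 at 0.992, ENSBTAG00000019937 at 0.969 and ENSBTAG00000010919 at 0.967, with J means 1.16, 1.17 and 1.16 times the H-F means. In the direction of H-F they were ENSBTAG00000011934 at 0.987, ENSBTAG00000020645 at 0.947 and DHRS7, a short-chain dehydrogenase/reductase, at 0.942. DHRS7 had 25.2 to 48.7 CPM in H-F (median 35.4) and 10.6 to 26.8 CPM in J calves (median 17.4), and H-F calf 49 with the J library of calf 9 at d -14 made the overlap. Its mean ratio of 1.95 was larger than that of ENSBTAG00000010456, which separated. When 1 library of each breed was allowed to cross, 11 genes separated in the direction of J and 5 in the direction of H-F, with DHRS7 and ENSBTAG00000011934 among the 5. Without J calf 85, 3 genes separated in the direction of J, since EXTL1 (ENSBTAG00000006349), a glycosyltransferase of heparan sulphate synthesis, and CHGA (ENSBTAG00000009836), the secretory granule protein chromogranin A, joined ENSBTAG00000010456. EXTL1 and CHGA were named after their values were seen. With TMM factors in place of column sums, the scaling used in the tests between days, ENSBTAG00000011934 also separated, which made 3 genes higher in H-F.

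**Figure D2:**
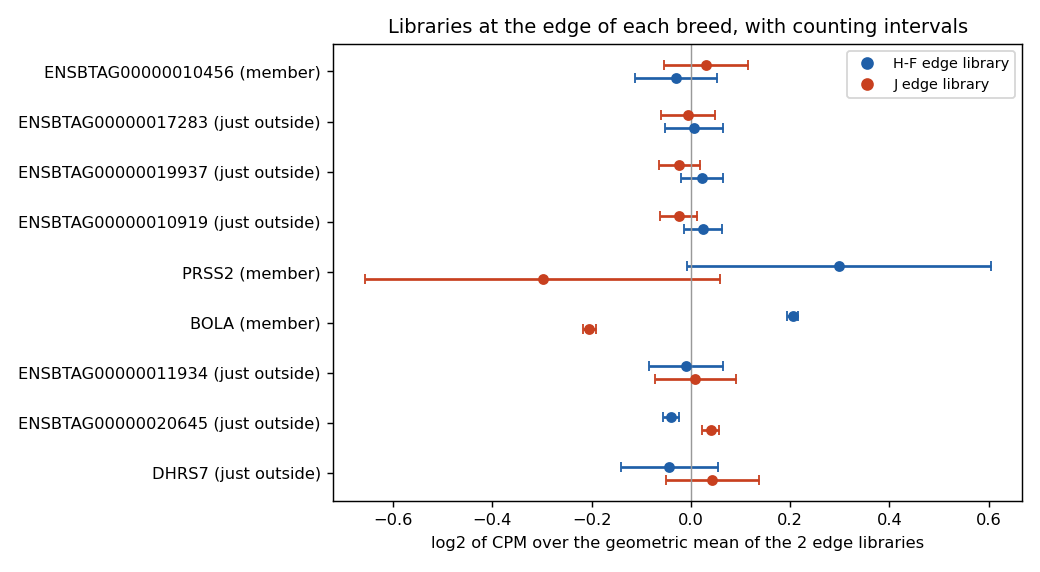
The 2 libraries that face each other across the gap, for the 3 separating genes and the 6 genes just outside, as log2 of CPM over the geometric mean of both (horizontal axis), with bars for 95% Wilson intervals. H-F libraries are blue and J libraries red. The bars stand apart in the separating direction for BOLA, while the bars of PRSS2 and ENSBTAG00000010456 overlap. Overlap of the bars alone does not test the ratio, whose counting interval for PRSS2 was 1.08 to 2.13. Neither interval allows for the choice of libraries and genes by the rule.

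Separation on a single day was more common than on all days. It could not be rarer, since it asks the same of fewer libraries. At d -14, 114 genes (0.921%) separated with J higher and 38 (0.307%) with H-F higher. At d 1 these were 64 (0.517%) and 23 (0.186%), and at d 8 they were 56 (0.452%) and 29 (0.234%). By the means of each calf, 121 (0.977%) and 62 (0.501%) separated. PRSS2, BOLA and ENSBTAG00000010456 are counted in each of these, as the rule requires. All these counts use column sums, under which the median gene was 0.05 higher in J on the log2 scale. How far that shift entered the larger counts toward J was not tested.

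The 3 genes differed in how their level varied within a breed. The rule did not set this spread, but it limited it relative to the gap between the breeds. On the scale of log2(CPM + 1), the SD of PRSS2 between H-F calves was 1.93, above that of 99.9% of the 12382 genes, and its SD between the days of a calf was 0.12. The ratio of these was 16.1, against a median of 0.971 over all genes in H-F calves. In J calves the corresponding SDs of PRSS2 were 0.22 and 0.15, a ratio of 1.48 that was above that of 75.2% of genes, against a median of 1.16 in J calves. Its level there was near 1 CPM, where the added 1 shrinks an SD on this scale. By CPM, the SD of the J calf means was 28.9% of their mean for PRSS2 and 27.2% for BOLA. BOLA showed the opposite pattern, with SDs of 0.42 between J calves and 0.10 between their days, a ratio of 4.21 that was above that of 99.1% of genes. Between H-F calves the SD of BOLA was 0.11 and between their days 0.08, a ratio of 1.43 that was above that of 80.6% of genes. A high ratio in J calves was not particular to BOLA among the genes named as MHC class I. It was 4.92 for JSP.1, 5.87 for ENSBTAG00000012208 and 5.61 for ENSBTAG00000001476, but lower, at 2.28, for ENSBTAG00000019386. In H-F calves the ratios of these other class I genes ran from 2.54 (ENSBTAG00000019386) to 6.83 (JSP.1), all above that of BOLA. For ENSBTAG00000010456 the SDs between calves were 0.13 in J and 0.07 in H-F, above those of 37.7% and 13.2% of genes. Its SDs between days were 0.09 and 0.06, above those of 20.9% and 4.2% of genes. With its small breed difference, this gene could separate only if its spread was small.

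**Figure D3:**
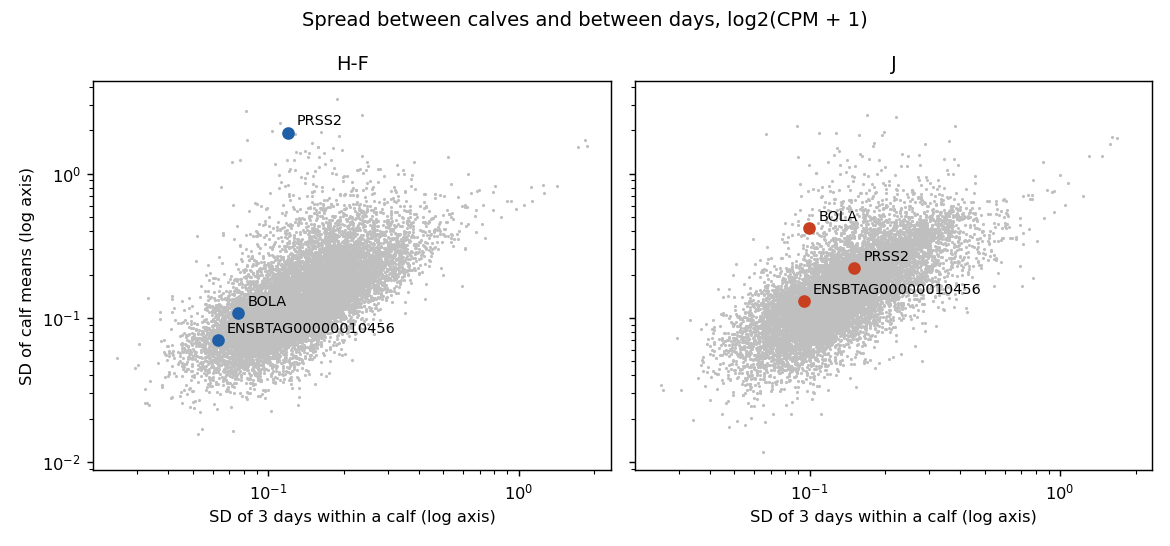
SD of the calf means (vertical) against SD of the 3 days within a calf (horizontal) on the log2(CPM + 1) scale, both axes logarithmic, for all 12382 genes in grey and the 3 separating genes as coloured dots, with H-F calves left and J calves right. PRSS2 stands at 1.93 between H-F calves and BOLA at 0.42 between J calves, each high for its spread between days.

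Days were compared within breed to ask whether the genes changed over gradual weaning. The rule did not compare days, but it asked every library of a breed to stay on its side on all 3 days, which limits how far a gene could move toward the other breed. For ENSBTAG00000010456, with an edge ratio of 1.04, a 1.5-fold rise in H-F calves would have ended the separation, so a lack of calls is partly set by the choice of genes. The comparisons were made with edgeR's quasi-likelihood test over 12717 genes, and a gene was called at a Benjamini-Hochberg adjusted p under 0.1 with a fold change of at least 1.5. None of the 3 genes was called, 0 of 3 in each of the 4 comparisons. Over all genes, 0 (0%) were called in H-F between d -14 and d 1, 5 (0.0393%) in H-F between d -14 and d 8, 0 (0%) in J between d -14 and d 1, and 0 (0%) in J between d -14 and d 8. Genes at an unadjusted p under 0.05 numbered 425, 1181, 1174 and 374 in the same order, and DESeq2 called 1, 20, 0 and 5.

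Because every calf gave a library per day, a fit with calf as a block compares each calf with itself. For H-F calves it called 31 genes (0.244%) at d 1 and 137 genes (1.08%) at d 8. For J calves it called 72 (0.566%) and 42 (0.33%), and 0 of the 3 genes were among any of these. In this fit the log2 fold change of BOLA in H-F calves was -0.05 (95% interval -0.16 to 0.05) at d 1 and 0.00 (-0.10 to 0.11) at d 8. Its values in J calves were 0.00 (-0.10 to 0.11) and 0.02 (-0.09 to 0.12). The widest of these intervals reached -0.16, which lies well inside a fold change of 1.5.

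For ENSBTAG00000010456 the log2 fold changes with the block were 0.05 (-0.04 to 0.13) at d 1 and 0.07 (-0.02 to 0.15) at d 8 for H-F. The J values were 0.05 (-0.03 to 0.14) and 0.03 (-0.05 to 0.12). For PRSS2 they were -0.04 (-0.20 to 0.11) and 0.06 (-0.10 to 0.21) in H-F calves. In J calves its values were -0.24 (-0.50 to 0.02) at d 1 and 0.01 (-0.25 to 0.26) at d 8. The value at d 1 was the largest of the 12 in size, with an edgeR adjusted p of 0.239, and PRSS2 was lower at d 1 than at d -14 in 6 of 8 J calves. Without the block the interval for PRSS2 was far wider, from -1.24 to 1.19 in H-F calves at d 1, since that fit counts the spread between calves.

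**Figure D4:**
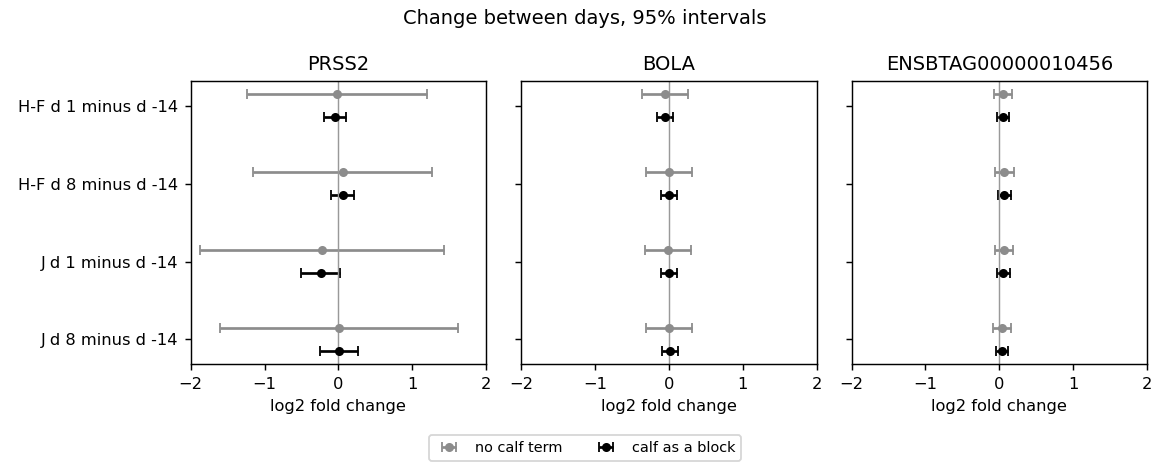
Log2 fold change from d -14 to d 1 and to d 8 in each breed for the 3 genes, with bars for 95% intervals, from the fit without a calf term (grey) and with calf as a block (black). All 24 intervals include 0, and for PRSS2 the block narrowed them from between -1.24 and 1.19 to between -0.20 and 0.11 in H-F calves at d 1.

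The difference between breeds in the change from d -14 was tested as an interaction, called at an adjusted p under 0.1. None of the 3 genes passed at d 1 or d 8. Over all genes 0 (0%) passed at d 1 and 0 (0%) at d 8, with 198 and 190 at an unadjusted p under 0.05 and 0 and 0 by DESeq2, and with calf as a block 2 (0.0157%) and 1 (0.00786%) passed. With the block the values, as J minus H-F, were 0.05 (-0.09 to 0.20) and 0.01 (-0.14 to 0.16) for BOLA, 0.00 (-0.12 to 0.12) and -0.04 (-0.16 to 0.09) for ENSBTAG00000010456, and -0.19 (-0.50 to 0.11) and -0.05 (-0.35 to 0.25) for PRSS2. The same limit from the choice of genes holds here.

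Other genes named as MHC class I were described beside BOLA, since reads of such genes are hard to assign. The study had listed them as differing between these samples, so they are no independent evidence of a direction. JSP.1 (ENSBTAG00000020116) was higher in J calves, with 1000 to 2577 CPM in J (median 1443) and 237 to 1098 CPM in H-F calves (median 524). Its log2 fold changes of J relative to H-F were 1.48, 1.54 and 1.42 at d -14, d 1 and d 8 (edgeR quasi-likelihood test, SE 0.27 each time, adjusted p = 0.000659, 0.000355 and 0.0011). On the same days 589 (4.63%), 761 (5.98%) and 529 (4.16%) of the 12717 genes were called.

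JSP.1 failed to separate the breeds through H-F calf 25, which had 973, 947 and 1098 CPM on the 3 days, while J calves 57 and 85 had calf means of 1057 and 1041 CPM. The H-F libraries without calf 25 reached 773 CPM at most. H-F calf 25 was thus the highest H-F calf for JSP.1 and the lowest for BOLA. J calf 7 was highest for JSP.1, with a calf mean of 2417 CPM. J calf 85 was lowest of its breed for both genes.

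A further 3 genes named as class I had lower means in J calves. ENSBTAG00000019386, named as non-classical, averaged 361 ± 125 CPM (SD, n = 8) over J calves, whereas H-F calves averaged 520 ± 121 CPM (SD, n = 8). ENSBTAG00000012208 averaged 60.2 ± 36.1 CPM (SD, n = 8 J calves) against 109 ± 32.1 CPM (SD, n = 8 H-F calves), and its ranges of 26.9 to 140 and 67.1 to 165 CPM overlapped. ENSBTAG00000001476 had 0.957 to 35.7 CPM in J (median 1.90) and 14.8 to 76.8 CPM in H-F calves (median 38.1). J calves fell apart for it, with calf means of 1.07 to 2.01 CPM in calves 6, 7, 13, 60 and 77 and of 15.6, 22.4 and 27.8 CPM in calves 9, 57 and 85.

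Summed over these 5 class I genes, the breeds lay much closer than for BOLA alone. All 5 came from the study's lists of genes differing between breeds. Class I genes outside those lists could not be matched, so the sum is not a total for class I. The sum was 2186 to 3948 CPM in J (median 3125) and 3024 to 4032 CPM in H-F calves (median 3565), and these ranges overlapped. By calf, the sum averaged 3087 ± 450 CPM (SD, n = 8 J calves) against 3550 ± 235 CPM (SD, n = 8 H-F calves), a ratio of 1.15 against 2.20 for BOLA. BOLA took 23.9% to 45.6% of the summed reads in J (median 30.6%) and 52.0% to 75.3% in H-F calves (median 66.6%). JSP.1 took 40.7% to 65.3% in J (median 46.6%) and 7.52% to 27.2% in H-F calves (median 14.9%). These are shares of reads, not corrected for gene length, and only reads that mapped to a single place with fewer than 2 mismatches were counted. How far differences in sequence between the breeds' class I alleles and the reference entered the counts was not tested.

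**Figure D5:**
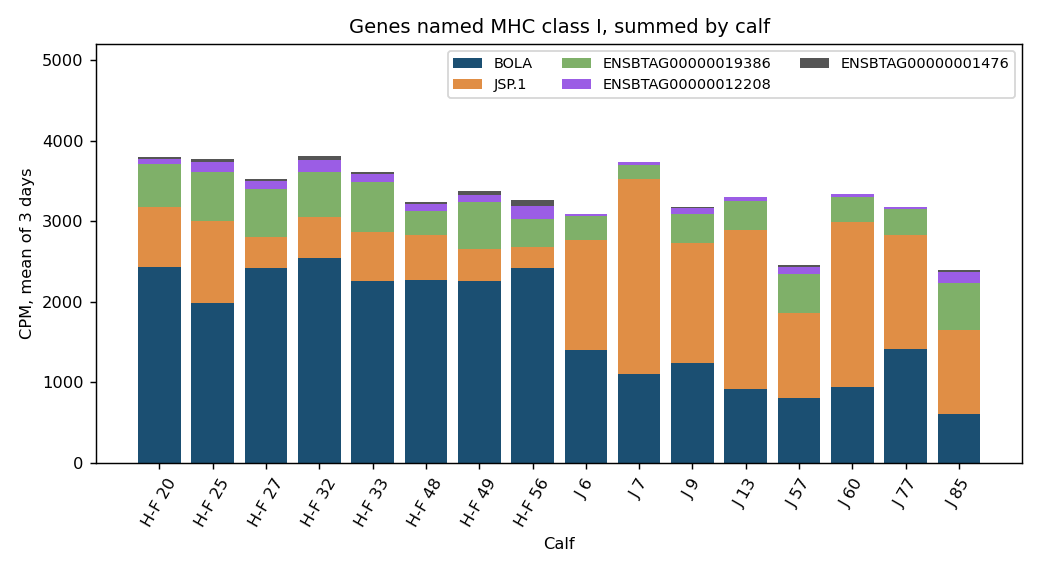
CPM of the 5 genes that the study's lists of breed differences name as MHC class I, stacked by calf as the mean of 3 days, with H-F calves left and J calves right. BOLA (dark blue) fills most of each H-F bar, JSP.1 (orange) is above it in every J bar but that of calf 6 (1368 against 1401 CPM) and nearly level in calf 77, and the total heights differ less.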

How the data were processed

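Whole-blood poly(A) RNA of 16 calves on 3 days gave 48 libraries. The authors deposited whole-number read counts per gene, not normalized: reads were checked with FastQC 0.10.0, aligned with STAR to UMD3.1, kept when uniquely mapped with fewer than 2 mismatches, and counted per Ensembl gene with HTSeq-count in union mode. For STAR and HTSeq the version, and for the counting the strand setting, were not stated in the sources used here. All columns matched a labelled calf and day, and 92 spike-in sequences were left out. Libraries held 26160617 to 39017662 gene reads, and counting error is largest in proportion near 1 CPM. It also matters for the small edge gap of ENSBTAG00000010456, between 35.1 and 33.7 CPM, where the counting intervals overlapped.

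CPM used the column sums of annotated genes. Genes with over 1 CPM in at least 8 libraries, 12717, were fitted with edgeR 4.0.16 in R 4.3.3 (quasi-likelihood test, TMM factors, a mean per breed and day, no calf term as in the study). Tables used Python 3.11.15, numpy 2.4.6, pandas 2.3.3 and scipy 1.17.1. Standard errors came from the fold change and its F value, and intervals are 95%. Alternatives were calf as a block, DESeq2 1.42.0, RLE size factors, other filters and each calf left out. Calf numbers pair the libraries: after removal of group means, libraries of a calf correlated at 0.310 to 0.911, and those of different calves at -0.669 to 0.467. Counts were also simulated without any calf effect over 12673 genes, 200 of them changed in H-F calves at d 8. Compared with d -14, 92% of these were recovered without the block (7 false calls) and 90% with it (8 false calls). The median log2 fold change estimated for the raised genes was 0.974 and 0.978. Lacking a calf effect, the simulation cannot say which fit suits the real libraries. No pair of libraries agreed within sampling noise.

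The genes, lists and alternatives were chosen with earlier results of these data known. Genes described in full were all those that separated, then the 3 just outside per direction and those the study's tables name as MHC class I, the last chosen after their values were seen. Symbols came from those tables, which name 699 of 800 listed genes. The reference table holds 0 Ensembl identifiers. Of 46 marker and 113 pathway symbols set out for description, 13 and 14 could be matched, all through genes listed as differing between breeds, so no count over these lists was made.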

Additional observations from a re-analysis of the deposited data

Results flagged for a closer look

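In 2 of 18 groups of 8 libraries tested for the 3 separating genes, a library stood apart from the rest of its group by Dixon's test. Chance flags about 1 in 20 such groups. ENSBTAG00000010456 in J calves at d 8 was highest in calf 85, at 49.2 CPM, while the group's median was 40.5 CPM. PRSS2 in J calves at d 1 was highest in calf 7, at 1.72 CPM from 62 reads, while the group's median was 0.946 CPM. This library is also the one that set the upper edge of the J calves for PRSS2.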

How the results depend on the processing

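All 3 genes separated the breeds under TMM factors (where ENSBTAG00000011934 joined, giving 3 higher in H-F) and under DESeq2 size factors. They also did with no filter, a mean of at least 5 CPM and with each calf left out. Those settings kept the same CPM values and the same rule of separation, so they could lose a gene only through the filter on the mean. All 3 genes had means above 5 CPM. Allowing 1 library of each breed to cross gave 11 genes higher in J and 5 higher in H-F. With 1 calf left out, 1 to 6 genes separated in the direction of J (6 when J calf 6 was dropped, 5 for H-F calf 25, 4 for H-F calf 56, 3 for each of J calves 7, 13 and 85, 2 for H-F calves 27, 32, 48 and 49) and 2 to 3 in that of H-F. Fewer libraries make separation easier. In the day comparisons of all genes, the replicate block (calf) gave 31 and 137 called genes in H-F at d 1 and d 8, 72 and 42 in J, and 2 and 1 in the interaction, against 0, 5, 0, 0, 0 and 0 without it, and changed no call of the 3 genes. DESeq2 gave 1 and 20 in H-F at d 1 and d 8 and 5 in J at d 8, and no filter on low counts gave 1 in H-F at d 8. Leaving out 1 calf gave 0 to 1 in H-F at d 1, 1 (without H-F calf 27) to 14 (without J calf 57) in H-F at d 8, 0 to 0 in J at d 1, 0 to 8 in J at d 8 (8 without J calf 57), and 0 to 0 in both interactions. Between breeds it gave 441 to 668 at d -14, 473 (without J calf 85) to 939 at d 1 and 397 to 650 at d 8. The cause of these shifts was not tested. Over the alternatives, within-breed day changes ranged from -0.07 to 0.03 for BOLA, -0.0031 to 0.09 for ENSBTAG00000010456 and -0.40 (J at d 1 without J calf 7) to 0.08 for PRSS2, with smallest adjusted p of 0.733, 0.334 and 0.239. Interactions ranged from -0.03 to 0.08, -0.08 to 0.05 and -0.38 to 0.00 in the same order. Counted over days, JSP.1 was called in all 48 breed comparisons with a calf left out and in all 9 under other settings. It was taken from genes that the study listed as differing in these samples, so such calls were largely set in advance.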
